A study of Mus musculus with 40 samples.

Results

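The genes described here are a branch of the circadian clock that carries its rhythm to other genes. They are Dbp, Tef and Hlf, which encode the PAR bZIP transcription factors, Nr1d1 and Nr1d2, which encode the nuclear receptors REV-ERBα and REV-ERBβ, and Rora and Rorb, which encode the related receptors RORα and RORβ. Their members were every RefSeq transcript of these 7 gene symbols in the deposited table, 9 of 6831 transcripts and 7 of 5849 genes. Dbp, Hlf, Nr1d1, Nr1d2 and Rorb had 1 transcript each, and Tef and Rora had 2 each. All 9 were in the table and none was removed by a filter here, but the table itself holds only abundant transcripts, the lowest with a mean of 549.2 normalised counts per library.

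Transcripts were measured by RNA sequencing of cortex from 12-week-old male C57BL/6 mice, 24 h after injury. Each day the mice received high-frequency head impacts (HF-HI) or a sham procedure, and 1 h earlier an injection of saline or of memantine, which blocks NMDA receptors. The 4 groups held 10 libraries each and are called saline HF-HI, memantine HF-HI, saline sham and memantine sham. Mice of all 4 groups were injected and anesthetized daily, and the sham groups had the same handling without impacts. The clock time of sampling was not given in the sources used here. The tissue was whole cortex, so fewer cells of a type and less RNA per cell cannot be told apart. The summed read counts ran from 13322402 to 17529642 per library. Markers of cortical excitatory neurons were abundant in every library, at 14668 to 21542 summed counts over 6 transcripts, and 10 of 15 striatal markers and 2 of 7 thalamic markers were also in the table. The striatal markers summed to 37684 ± 3554 in saline HF-HI and to 43980 ± 5951 in saline sham (mean ± SD, n = 10 each).

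In the clock, the activators CLOCK and BMAL1 (the product of Arntl) bind E-box elements in DNA. They drive both their own repressors, PER and CRY, and the PAR bZIP and REV-ERB genes. DBP, TEF and HLF bind a shared element, the D-box, and activate genes of metabolism and signalling at particular times of day. REV-ERB proteins repress Arntl and ROR proteins activate it through a common response element, so the genes form a loop with Arntl. In most tissues Dbp and Nr1d1 have large daily rhythms, whereas Rorb in cortex is best known as a marker of layer 4 neurons and Rora is also strong in thalamus.

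The promoters below are shown because the 2 Tef transcripts start at different places and because Dbp, Nr1d1 and Nr1d2 are the members on which the comparisons and the relations between libraries turn. Each runs from 250 bases before a RefSeq start through 50 bases from it, in the direction of transcription, from RefSeq's annotation of mouse build GRCm38.p6. Capitals mark the motifs found. The 7 genes span chr7:45705100-45710203 (Dbp, plus strand), chr15:81802673-81826863 (Tef, plus), chr11:90336535-90390917 (Hlf, minus), chr11:98767932-98775377 (Nr1d1, minus), chr14:18204056-18239106 (Nr1d2, minus), chr9:68653404-69388246 (Rora, plus) and chr19:18930609-19111196 (Rorb, minus) in the same annotation.

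Dbp, chr7:45704997-45705296, plus strand: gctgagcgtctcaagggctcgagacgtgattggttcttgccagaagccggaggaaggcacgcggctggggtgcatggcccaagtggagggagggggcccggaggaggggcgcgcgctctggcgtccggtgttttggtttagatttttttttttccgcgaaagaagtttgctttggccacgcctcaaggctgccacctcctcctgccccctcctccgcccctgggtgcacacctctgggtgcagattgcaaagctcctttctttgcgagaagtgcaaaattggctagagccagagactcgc
Tef upstream start, chr15:81802423-81802722, plus strand: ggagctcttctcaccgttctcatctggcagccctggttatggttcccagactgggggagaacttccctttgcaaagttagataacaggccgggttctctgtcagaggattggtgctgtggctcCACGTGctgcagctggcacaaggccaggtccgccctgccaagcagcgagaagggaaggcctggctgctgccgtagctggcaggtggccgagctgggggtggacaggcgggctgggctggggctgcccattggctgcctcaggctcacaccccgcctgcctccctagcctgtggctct
Tef downstream start, chr15:81811164-81811463, plus strand: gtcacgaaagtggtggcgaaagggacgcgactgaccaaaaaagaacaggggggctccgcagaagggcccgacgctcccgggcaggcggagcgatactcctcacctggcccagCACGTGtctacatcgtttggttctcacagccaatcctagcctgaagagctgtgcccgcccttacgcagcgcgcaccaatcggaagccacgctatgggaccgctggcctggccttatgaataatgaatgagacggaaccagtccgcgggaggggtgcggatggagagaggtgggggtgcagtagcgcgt
Nr1d1, chr11:98775328-98775627, minus strand: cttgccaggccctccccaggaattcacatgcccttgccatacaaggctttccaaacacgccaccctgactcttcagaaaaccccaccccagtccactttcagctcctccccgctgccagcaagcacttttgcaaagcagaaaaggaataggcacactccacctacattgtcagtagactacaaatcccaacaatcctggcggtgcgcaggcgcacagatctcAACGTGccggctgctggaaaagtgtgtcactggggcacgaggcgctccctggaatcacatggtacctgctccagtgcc
Nr1d2, chr14:18239057-18239356, minus strand: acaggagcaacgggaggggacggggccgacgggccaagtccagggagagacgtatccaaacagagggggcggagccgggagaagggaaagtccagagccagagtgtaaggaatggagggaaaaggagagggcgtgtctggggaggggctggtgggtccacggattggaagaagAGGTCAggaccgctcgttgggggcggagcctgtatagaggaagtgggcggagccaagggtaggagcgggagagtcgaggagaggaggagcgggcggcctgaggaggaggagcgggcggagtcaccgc

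Both Tef windows held the E-box CACGTG, 127 and 138 bases before the start, a hexamer found in 7.15% of the 32851 promoter windows of the same length. The Nr1d1 window held the variant E-box CACGTT on the other strand, 28 bases before the start, where it reads AACGTG as printed, a hexamer found on either strand in 4.68% of windows. The Nr1d2 window held AGGTCA, the core hexamer to which many nuclear receptors bind, 77 bases before the start, which occurred in 16.3% of windows. The longer ROR element, which is that hexamer with AANT before it, occurred in 0.219% of windows, and the D-boxes TTATGTAA and TTACGTAA in 0.938% and 0.119%. None of these 3 and neither E-box was found in the Dbp window. That window is set on a start at chr7:45705247, inside the gene span that begins at 45705100, so only part of it lies before the gene. Neither D-box nor the longer element was found in any of the 9 windows of the 7 genes. These are not the starts of the 9 members: Rora NM_001289916, which starts at chr9:69289682, had no window, and a Rorb start at chr19:19001117 belongs to no member. Both strands were searched. These are matches of letters within 300 bases, not measured sites.

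The members were chosen by the read counts of memantine sham versus saline sham, in which Dbp and Nr1d2 led. The values of that comparison are therefore given as a description with no p-value, and nothing is read from its counts of calls. Memantine HF-HI and saline HF-HI share no library with it, and their comparison is tested. Each comparison of impact with sham shares 1 sham group with it. Because the choice favoured genes low in saline sham and high in memantine sham, higher values with impact under saline, and none under memantine, are what the choice itself would tend to give, and the p-values of these comparisons are printed as no independent support. Changes are given as log2 changes of the normalised count with their standard errors, and p-values are two-sided from limma on the deposited log2-scale values over all 6831 transcripts.

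Per kilobase of transcript in saline sham, the levels fell in the order Rora NM_001289916 (1219 ± 421 counts per kilobase), Tef NM_153484 (1030 ± 249), Nr1d2 (821 ± 44.1), Hlf (656 ± 70.2), Dbp (548 ± 60.0), Tef NM_017376 (481 ± 244), Nr1d1 (304 ± 53.1), Rorb (303 ± 67.5) and Rora NM_013646 (117 ± 68.2). Of neighbours in that order, Nr1d2 and Hlf, and Rorb and Rora NM_013646, were apart by more than their SDs, and the SDs of all other neighbours overlapped.

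Dbp had means in the order saline sham, saline HF-HI, memantine HF-HI and memantine sham. The ends of that order are the groups whose comparison chose Dbp, so nothing is read from it. In saline sham its normalised counts ran from 868 to 1132 with a median of 1011, in saline HF-HI from 817 to 1298 with a median of 1161, in memantine HF-HI from 1142 to 1414 with a median of 1325 and in memantine sham from 1176 to 1597 with a median of 1391. The lowest memantine sham library thus lay above the highest saline sham library, and the lowest memantine HF-HI library did so as well. The means were 1006 ± 110, 1134 ± 134, 1295 ± 94.5 and 1388 ± 129 (SD, n = 10 each). The ratio of memantine sham to saline sham was 1.38, a log2 change of 0.47 ± 0.07.

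In the impacted mice Dbp was higher with memantine than with saline by 0.20 ± 0.07 on the log2 scale of counts, in 10 of 10 libraries against the saline HF-HI mean. The unadjusted p-value was 0.00425 with limma and 0.00361 in a permutation test, and the limma p-value adjusted over all transcripts was 0.9995. No transcript in the table had an adjusted limma p-value under 0.1 in this comparison, and 267 had an unadjusted one under 0.05. The interaction of impact and drug was −0.27 ± 0.09. It was not tested, and its size is not read, because it contains the comparison that chose Dbp.

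Tef had means in the same order when its transcripts were added, 6498 ± 455, 6950 ± 276, 7443 ± 612 and 7614 ± 422 counts. The sum ran from 5887 to 7235 in saline sham with a median of 6475, from 6653 to 7420 in saline HF-HI with a median of 6880, from 6450 to 8354 in memantine HF-HI with a median of 7638 and from 6985 to 8326 in memantine sham with a median of 7525. All groups overlapped. The summed count was higher in memantine HF-HI than in saline HF-HI by 0.10 ± 0.04 on the log2 scale, with an unadjusted limma p-value of 0.0242 (adjusted p = 0.997 over 5849 genes) and a permutation p-value of 0.0382, in 7 of 10 libraries against the saline HF-HI mean. It was higher in saline HF-HI than in saline sham by 0.10 ± 0.04 (limma p = 0.0193, adjusted p = 0.363), in 10 of 10 libraries against the saline sham mean. In memantine sham it was 0.23 ± 0.04 above saline sham.

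**Figure D1:**
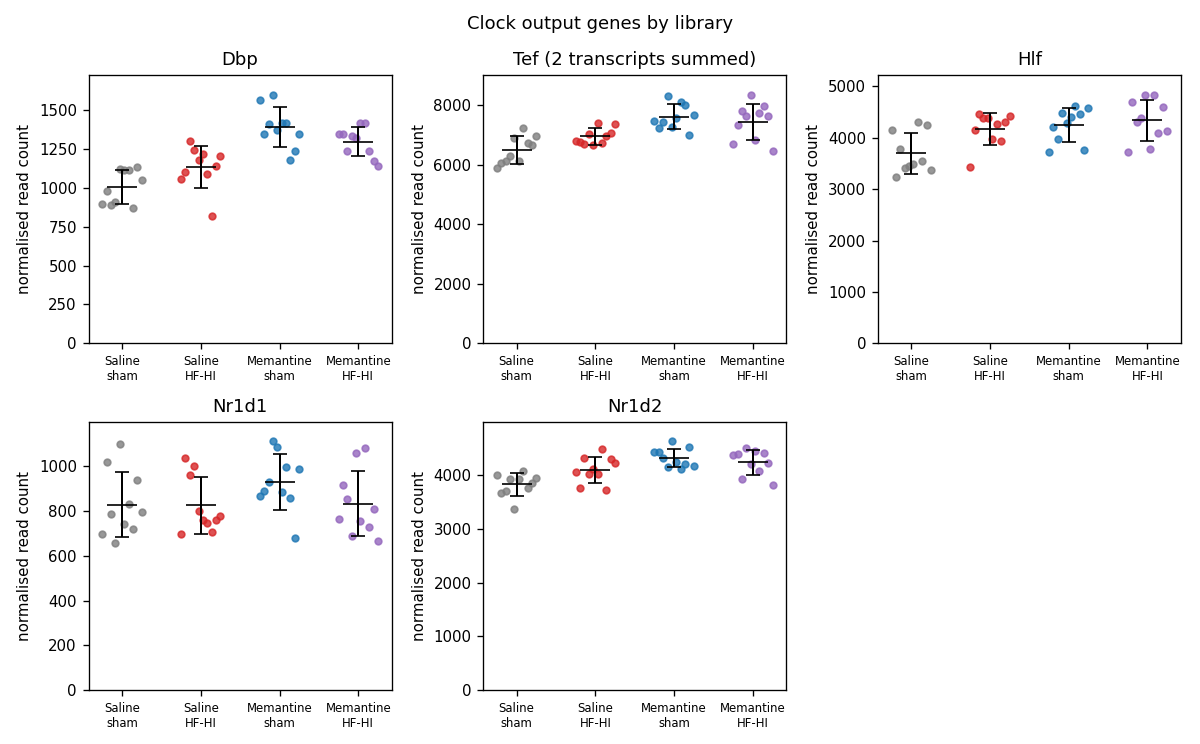
Normalised read counts of Dbp, Tef (2 transcripts summed), Hlf, Nr1d1 and Nr1d2 on the vertical axes, starting at 0, in the 4 groups. Each point is 1 library, and the bars give the mean ± SD of 10 libraries. The memantine sham libraries of Dbp sit between 1176 and 1597, all above the saline sham libraries, whereas the Nr1d1 points of all groups overlap.

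Hlf, the most abundant single transcript of the PAR bZIP genes per kilobase after one of the Tef transcripts, was higher with impact under saline. Its counts ran from 3230 to 4301 in saline sham with a median of 3518, from 3439 to 4460 in saline HF-HI with a median of 4284, from 3729 to 4618 in memantine sham with a median of 4353 and from 3727 to 4838 in memantine HF-HI with a median of 4347. The saline sham libraries lay low as a group, and the other 3 groups covered nearly one range. The difference in saline HF-HI was 0.18 ± 0.06 (limma p = 0.00428, adjusted p = 0.284), in 9 of 10 libraries. In the same groups Kcnh5, a layer 4 marker, went from 1990 ± 115 to 2161 ± 248 counts and 4 interneuron markers from 13815 ± 1128 to 12938 ± 846 summed counts, and their part in the difference of Hlf was not tested. Memantine HF-HI differed from saline HF-HI by 0.06 ± 0.06 (limma p = 0.326), with a 95% interval of −0.06 to 0.17. In memantine sham Hlf was 0.20 ± 0.06 above saline sham, in 10 of 10 libraries.

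Nr1d2 showed the smallest spread between libraries of any member. Its counts ran from 3376 to 4068 in saline sham with a median of 3898, from 3721 to 4487 in saline HF-HI with a median of 4087, from 3815 to 4511 in memantine HF-HI with a median of 4303 and from 4109 to 4626 in memantine sham with a median of 4275. Memantine sham and saline sham did not overlap, with 0.18 ± 0.03 between them. Dbp and Nr1d2 were the only transcripts of 6831 that did not overlap between these groups, which is 0.0293% and is what placed them here. Against the saline sham libraries that took part in its choice, Nr1d2 was higher in saline HF-HI by 0.10 ± 0.03 (limma p = 0.00619, adjusted p = 0.323), in 8 of 10 libraries against the saline sham mean. Memantine HF-HI differed from saline HF-HI by 0.05 ± 0.03 (limma p = 0.168), with a 95% interval of −0.02 to 0.12.

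Nr1d1, the other REV-ERB gene, did not pass in the tested comparisons under the design used throughout. With impact under memantine its limma p-value was 0.112, but 0.0399 with array weights (libraries weighted by their residual variance), 0.0485 with the first residual component as a covariate, 0.0386 without memantine sham replicate 9, 0.0422 without memantine HF-HI replicate 7 and 0.0476 without memantine HF-HI replicate 5. Its counts were 828 ± 145 in saline sham, 928 ± 125 in memantine sham, 824 ± 126 in saline HF-HI and 833 ± 146 in memantine HF-HI, and single libraries ran from 657 to 1110. The difference between the drugs in impacted mice was 0.01 ± 0.10 (limma p = 0.906), with a 95% interval of −0.19 to 0.21, so a change as large as that of Dbp lies within the interval. The 3′ end of Nr1d1 overlaps Thra, the gene of thyroid hormone receptor α, on the opposite strand at chr11:98767932-98769006 in mm10, over 1075 bases. Libraries were prepared with a stranded kit, but the strand setting of the counting was not stated, so reads of the 2 genes in the overlap are uncertain. Thra NM_178060 had 1038 ± 173 counts in saline HF-HI and 1246 ± 235 in memantine HF-HI, and Thra NM_001313983 had 4872 ± 432 and 4606 ± 286.

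The retinoid-related receptors varied widely between libraries, and neither the sum of the Rora transcripts nor Rorb passed in a tested comparison. The sum of the 2 Rora transcripts had a median of 4389 in saline sham, 4064 in memantine sham, 4580 in saline HF-HI and 4576 in memantine HF-HI, and the libraries ran from 3045 to 7252. The largest difference of the sum in the tested comparisons was 0.07 ± 0.13 (limma p = 0.595, memantine HF-HI versus memantine sham). Rorb had medians of 3005, 3094, 2890 and 2789 in the same order of groups and ran from 656 to 4195, and 3 of the 4 groups had 1 library far below the other 9. Its tested differences all had unadjusted limma p-values of 0.303 or more, with a 95% interval of −0.62 to 0.41 between the drugs in impacted mice.

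**Figure D2:**
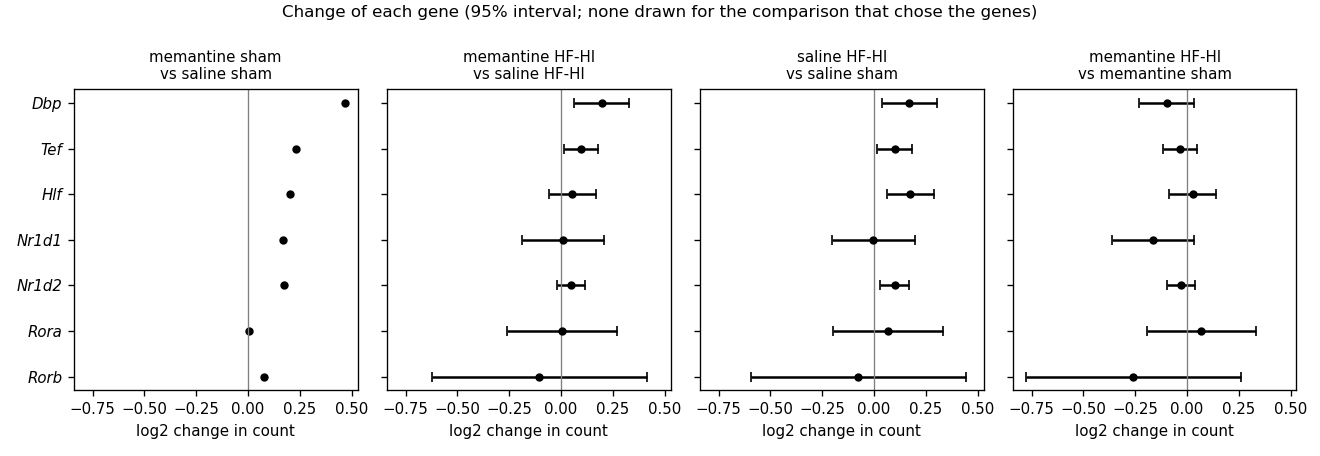
Log2 change in normalised count of each gene on the horizontal axis, with the transcripts of Tef and Rora summed, in 4 comparisons of 10 against 10 libraries. Bars are 95% limma intervals, and none is drawn for memantine sham versus saline sham, which chose the genes. The intervals of Dbp lie above 0 between the drugs in impacted mice, 0.07 to 0.33, and for impact under saline, 0.04 to 0.30, and cross 0 for impact under memantine.

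Counted over transcripts, 3 of the 9 members had an unadjusted limma p-value under 0.05 in memantine HF-HI versus saline HF-HI, namely Dbp, Tef NM_017376 and Rora NM_013646, all higher. Of all transcripts 3.91% passed there, and 1.52% passed and were higher. The median log2 change was 0.05 over the 9 members and 0.00016 over all transcripts. In saline HF-HI versus saline sham 3 of 9 passed, Dbp, Hlf and Nr1d2, all higher, against 9.53% of all transcripts and 4.58% that passed and were higher. Dbp was higher there by 0.17 ± 0.07 (limma p = 0.0149, adjusted p = 0.412), in 9 of 10 libraries. The members' median change was 0.10, against 0.00021 over all transcripts. The striatal markers were lower in the same comparison, and with their mean as a covariate these 3 still passed, as did Tef NM_153484 (limma p = 0.0448, against 0.0595 without it). The same covariate ended the call of Rora NM_013646 in memantine HF-HI versus saline HF-HI (limma p = 0.0512). In memantine HF-HI versus memantine sham 3 of 9 passed, against 4.61% of all transcripts. Tef NM_017376 and Rora NM_013646 were higher, where 2.39% of all transcripts passed, and Tef NM_153484 was lower, where 2.23% did. In memantine sham versus saline sham 4 of 9 passed, all higher, against 7.51% of all transcripts and 3.67% that passed and were higher, and nothing is read from that count because this comparison chose the members. No member had an adjusted p-value under 0.1 in the 3 tested comparisons.

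Under memantine the gene-level values of the PAR bZIP and REV-ERB genes did not pass with impact. Dbp was −0.10 ± 0.07 from memantine sham (limma p = 0.118), the Tef sum −0.04 ± 0.04 (limma p = 0.392), Hlf 0.03 ± 0.06 (limma p = 0.624), Nr1d1 −0.16 ± 0.10 (limma p = 0.112) and Nr1d2 −0.03 ± 0.03 (limma p = 0.422). Summed by symbol, 0 of the 7 genes passed with impact under memantine, against 4.38% of 5849 genes. As the sham groups took part in the choice, nothing is read from that count or from the 4 of 7 for impact under saline (Dbp, Tef, Hlf and Nr1d2), against 10.7%. Between the drugs in impacted mice 2 of 7 passed (Dbp and Tef), against 3.62%. The interaction estimates were −0.13 ± 0.06 for the Tef sum, −0.15 ± 0.08 for Hlf, −0.16 ± 0.14 for Nr1d1 and −0.13 ± 0.05 for Nr1d2, none of them tested.

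The 2 Tef transcripts moved against each other from library to library. Tef NM_153484 starts upstream and was the more abundant, with 1030 ± 249 counts per kilobase in saline sham against 481 ± 244 for Tef NM_017376, which begins at the downstream start at chr15:81811414-81826698. NM_017376 ran from 982 to 4266 counts in saline sham with a median of 1644, from 1035 to 3021 in saline HF-HI with a median of 1354, from 989 to 2148 in memantine sham with a median of 1166 and from 1119 to 4936 in memantine HF-HI with a median of 2155. It made up 30.3% ± 15.8 of the Tef counts in saline sham, 17.3% ± 5.09 in memantine sham, 23.5% ± 8.91 in saline HF-HI and 33.1% ± 16.8 in memantine HF-HI. Within groups the correlation of the 2 transcripts was −0.83 over 40 libraries. Whether the counting moved reads between them was not tested.

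In memantine HF-HI versus memantine sham, NM_017376 rose by 0.79 ± 0.25 (limma p = 0.00375, adjusted p = 0.860) and NM_153484 fell by 0.39 ± 0.14 (limma p = 0.00513, adjusted p = 0.896). The sum of both differed by −0.04 ± 0.04, as given above. In memantine HF-HI versus saline HF-HI, NM_017376 was higher by 0.51 ± 0.25 (limma p = 0.0442, adjusted p = 0.9995), in only 6 of 10 libraries against the saline HF-HI mean, its permutation p-value was 0.0853, and its limma p-value was over 0.05 without any 1 of 12 of the 20 libraries compared, up to 0.122 without memantine HF-HI replicate 3. The SD within groups on the log2 scale was 0.58 for NM_017376, 0.32 for NM_153484 and 0.09 for their sum, against a median of 0.11 over all transcripts. The same held in part for Rora, whose NM_013646 rose in memantine HF-HI versus saline HF-HI by 0.66 ± 0.30 (limma p = 0.0205, adjusted p = 0.9995, permutation p = 0.00965) while the sum differed by 0.01 ± 0.13 (limma p = 0.968). Its p-value was over 0.05 without saline HF-HI replicate 9 (0.0573) or memantine HF-HI replicate 8 (0.0518). Rora NM_013646 also rose with impact under memantine, by 0.62 ± 0.30 (limma p = 0.0334, adjusted p = 0.968), and that p-value was over 0.05 without any 1 of 5 of the 20 libraries, up to 0.0954 without memantine sham replicate 2. The 2 Rora transcripts had a within-group correlation of −0.573 over 40 libraries.

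**Figure D3:**
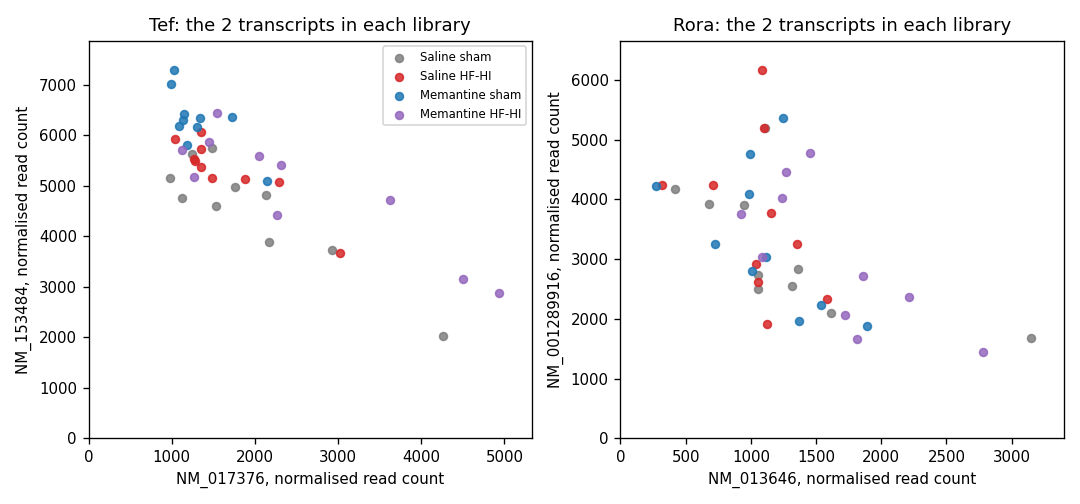
Normalised read counts of the 2 transcripts of Tef (left) and of Rora (right), 1 point per library, colored by group, both axes starting at 0. Libraries with a high count of one transcript have a low count of the other, and the within-group correlation was −0.83 for Tef and −0.573 for Rora.

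The rest of the clock was read from a list of 28 genes, of which 18 were in the table with 21 transcripts. In saline HF-HI versus saline sham 6 of the 21 had an unadjusted limma p-value under 0.05, against 9.53% of all transcripts. Of all transcripts 4.58% passed and were higher there, and 4.95% passed and were lower. Saline sham took part in the choice of Dbp, with which Arntl varied within groups, so nothing is read from this count. The repressors Per1 and Cry2 and the clock modulator Bhlhe40 were higher, Per1 by 0.33 ± 0.15 (limma p = 0.0336, adjusted p = 0.486). Arntl was lower, as were Por and Pdxk, which encode enzymes under clock control. In each of memantine HF-HI versus saline HF-HI and memantine HF-HI versus memantine sham 0 of the 21 passed. Of all transcripts only 3.91% and 4.61% passed there, so these counts lie near the share over the whole table. Arntl had 723 ± 65.2 counts in memantine sham, 750 ± 47.5 in memantine HF-HI, 781 ± 56.7 in saline HF-HI and 848 ± 94.1 in saline sham, which is the order of Dbp turned round. The ends of that order are the sham groups, whose comparison chose Dbp, so nothing is read from it. Between the drugs in impacted mice Arntl differed by −0.06 ± 0.06 (limma p = 0.300, adjusted p = 0.9995). Between memantine sham and saline sham, as a description, 14 of 21 were higher. The median log2 change was 0.07 over the 21 and −0.00054 over all transcripts. Per2 rose most of the 21, at 1537 ± 264 against 1206 ± 251 counts, and Arntl fell most, with 10 of 10 values under the saline sham mean. Pdxk, Nampt and Noct had ratios of means of 0.9994, 1.015 and 1.018. Nothing is read from these values, because this comparison chose the members.

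Within groups, Dbp and Arntl moved in opposite directions. After each group's mean was removed, the correlation of Dbp with 24 other clock genes was computed over the 40 libraries, with permutation within groups, and 2 had an adjusted p-value under 0.05. Here and in the correlations below, a gene with 2 transcripts was the mean of their deposited values, unless summed counts are named. Arntl had r = −0.586 (permutation p = 0.00012, adjusted p = 0.00288) and rho = −0.566 (adjusted p = 0.0134), and r was −0.548 without the 2 libraries farthest from the median of Dbp. It was −0.668 in saline sham, −0.753 in memantine sham, −0.682 in saline HF-HI and −0.03 in memantine HF-HI, and the difference between groups was not tested. Nr1d1 had r = 0.503 (permutation p = 0.00148, adjusted p = 0.0178) and rho = 0.503 (adjusted p = 0.0144), with 0.48 without those libraries and 0.447 to 0.567 in the 4 groups.

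Per1, with r = 0.427, and Alas1, which encodes the first enzyme of heme synthesis, with r = 0.439, passed by rho only (adjusted p = 0.0146 and 0.0144, against 0.0587 and 0.0563 for r, permutation within groups). Among the relatives of Dbp, Tef had r = 0.32 (adjusted permutation p = 0.146), Nr1d2 0.244 (0.273) and Hlf 0.184 (0.397). On log2 summed counts Tef had r = 0.245. Nr1d1 and Nr1d2 had a correlation of −0.333 with each other.

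**Figure D4:**
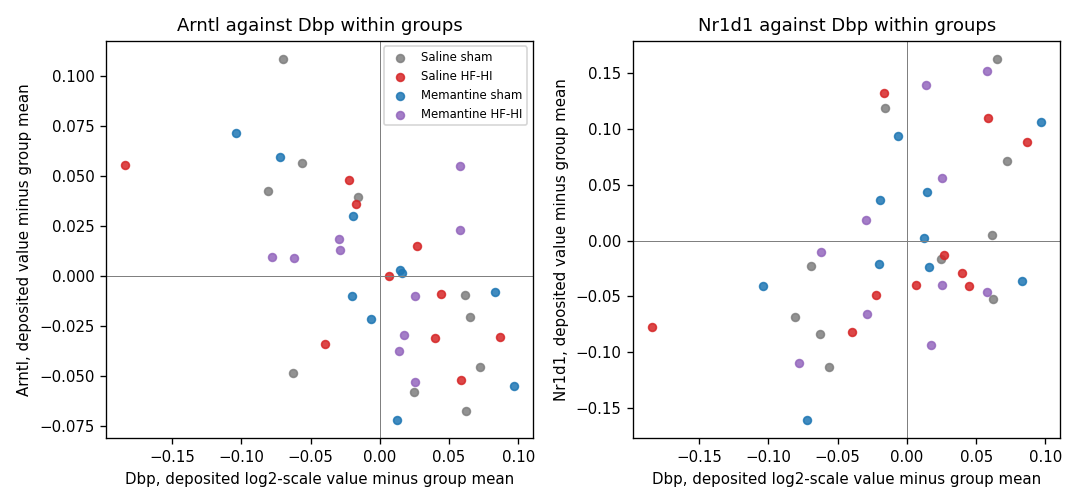
Arntl (left) and Nr1d1 (right) against Dbp, each as the deposited log2-scale value minus its group mean, 1 point per library of 40, colored by group. Arntl falls as Dbp rises, with r = −0.586, and Nr1d1 rises with it, with r = 0.503. The point at the far left is saline HF-HI replicate 8, which had 817 counts of Dbp.

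Of all other transcripts, those most like Dbp within groups were Tril, Sh3kbp1, Ppp1r13b, Hepacam and Scd1, with r from 0.603 to 0.642. Those most opposed were Pcsk1, Spred1, Cop1, Khdrbs3 and Arntl, with r from −0.586 to −0.679. The middle 98% of all transcripts ran from −0.45 to 0.443, so Arntl was among the 5 lowest of the whole table. These are a description over 40 libraries that share the size factors of 1 normalisation. The transcripts most like the other members were Rhob and Tprgl for Tef (0.687 and 0.676), Ccni and Prickle1 for Hlf (0.807 and 0.762), Tmem8b and Scaf1 for Nr1d1 (0.837 and 0.831), Ubxn7 and Klhl24 for Nr1d2 (0.787 and 0.765), Slc17a6 and Kcnc2 for Rora (0.865 and 0.86), and Fam168b and Cacna1c for Rorb (0.569 and 0.537).

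Rora followed markers of thalamus across libraries. Slc17a6, which heads its list, encodes the vesicular glutamate transporter of thalamic and other subcortical neurons. With the mean of Prkcd and Plekhg1, the 2 of 7 thalamic markers in the table, Rora, as the mean of its 2 transcripts, had r = 0.841 within groups and rho = 0.755 over 40 libraries (permutation p = 1e-05 for both, the smallest that 100000 resamples can give, and adjusted p = 0.00063 over 63 pairs of members and marker lists). The value was 0.782 without the 2 most extreme libraries and 0.772 to 0.915 in the 4 groups. The library with the most Rora, saline HF-HI replicate 10, had 7252 counts of Rora, 2265 of Prkcd and 1800 of Slc17a6, and the library with the least, saline HF-HI replicate 1, had 3045, 227 and 565. Both extremes belong to one group. With the thalamic mean as a covariate, Rora NM_001289916 was lower in memantine HF-HI than in saline HF-HI (limma p = 0.0293), and without it the p-value was 0.228.

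**Figure D5:**
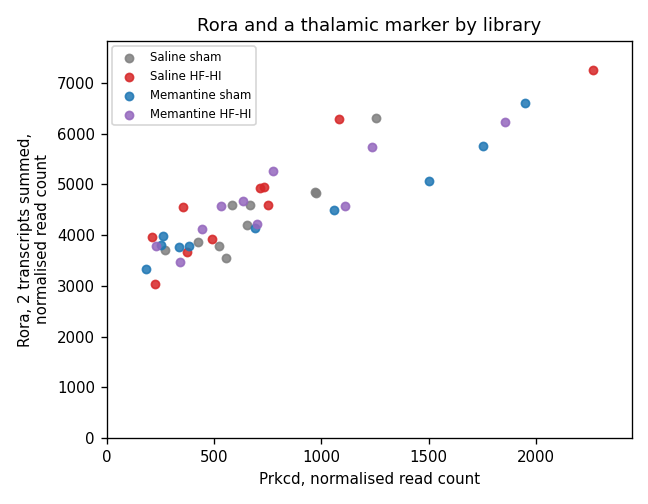
Normalised read counts of Rora (2 transcripts summed, vertical axis) against Prkcd, a marker of thalamus (horizontal axis), both axes starting at 0, 1 point per library of 40, colored by group. Libraries rise together from 3045 to 7252 counts of Rora, and saline HF-HI holds both the lowest and the highest of them.

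A further 2 pairs of 63 had adjusted permutation p-values under 0.05. They were Rora with the oligodendrocyte markers (r = 0.561, adjusted p = 0.00819, rho = 0.47 with adjusted p = 0.0958) and Hlf with Kcnh5, the single layer 4 marker in the table (r = 0.55, adjusted p = 0.00819). The smallest adjusted permutation p-value of the remaining pairs, which include interneuron, astrocyte, microglial and endothelial markers, was 0.123 (Hlf with interneurons, r = -0.428). Dbp had r = 0.22 with the thalamic and 0.142 with the striatal markers (adjusted permutation p = 0.509 and 0.760). The part of tissue composition in the changes between groups was not tested beyond the striatal and thalamic covariates.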

How the data were processed

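Cortex RNA was sequenced as 40 stranded, ribosomal RNA-depleted libraries. The labels give 10 libraries per group, which were used as replicates, whereas the design text gives 4 samples per group. No label says that each library is a separate mouse, so SDs and p-values measure the spread between libraries, which may be technical. The methods of the study name STAR and eXpress, and the submitters' processing notes name HISAT2 and StringTie, both with mm10, and which made the table was not settled. The authors deposited values on a log2 scale, from the variance-stabilising transformation of DESeq2, in 1 table. Here the transformation was inverted (floor 10.36, a count of 0) to normalised counts. Values under 5000 counts, 92.3% of all, were then whole reads within 0.05. Size factors ran from 0.859 to 1.141. No 2 libraries of the same group agreed within sampling noise. Counting error at the mean of Dbp is 2.88%.

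Values were fitted with limma 3.58.1 (trend; R 4.3.3), with a term per group over all libraries, on the deposited log2 values. Log2 counts, by transcript and summed by symbol, were fitted in the same way. Calls were made at an unadjusted p under 0.05 (the criterion of the study) and at a Benjamini-Hochberg adjusted p under 0.1. Permutation tests used 100000 resamples, and log2 counts a pseudocount of 0.5. Lengths per kilobase came from the matched mm10 annotation. The members and lists were chosen with earlier results of these data known. Named genes were all members, the clock list, Thra, the 5 highest and 5 lowest correlations with Dbp and the 2 highest for each other member. The marker lists were striatum, thalamus, cortical excitatory neurons, layer 4, interneurons, astrocytes, oligodendrocytes, microglia and endothelial cells. Correlations with them and the thalamic covariate were added after seeing the data. The code was tested on simulated data.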

Additional observations from a re-analysis of the deposited data

Results flagged for a closer look

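Within the groups of 10 libraries, 44 sets of values were examined for a single library far from the other 9 (a gap beyond Dixon's 95% critical value), and 7 were found, all of them low. Chance alone gives about 1 in 20 such sets.

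Rorb, with only 1 transcript in the table and so no sum to examine, accounted for 3 of them. With the layer 4 marker Kcnh5, Rorb had r = 0.155 within groups (adjusted permutation p = 0.763) and rho = 0.338 (adjusted permutation p = 0.253). It had 1138 counts in saline sham replicate 10 against 2688 to 3447 in the other libraries, 656 in saline HF-HI replicate 2 against 2320 to 4111, and 1248 in memantine sham replicate 6 against 2495 to 4195. The Tef transcript NM_153484 had 2022 counts in saline sham replicate 4 against 3732 to 5748, and 3677 in saline HF-HI replicate 3 against 5088 to 6063, and neither library stood apart in the sum of the Tef transcripts. Dbp had 817 counts in saline HF-HI replicate 8 against 1057 to 1298. Hlf had 3439 counts in saline HF-HI replicate 1 against 3938 to 4460, and that library also had the lowest Rora. The causes were not tested.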

How the results depend on the processing

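Of 385 changes of member transcripts recomputed under alternatives that kept every library, 374 were counted as the same. In the tested comparisons that meant the same direction and the same side of the threshold. In memantine sham versus saline sham, where no p-value is quoted, it meant a shift of less than the fitted SD within groups. Under alternatives, the number of members called changed by over 1.5 times in a pair of cases: 0 in memantine HF-HI versus memantine sham after summing transcripts by symbol and 1 in memantine HF-HI versus saline HF-HI at an unadjusted p under 0.01. With 1 library left out the counts ran from 1 to 3 for memantine HF-HI versus saline HF-HI (1 without saline HF-HI replicate 9), 3 to 4 for saline HF-HI versus saline sham, 2 to 4 for memantine HF-HI versus memantine sham and 4 to 5 for memantine sham versus saline sham. Dbp kept an unadjusted limma p-value of at most 0.0142 between the drugs in impacted mice and at most 0.0357 for impact under saline. The Tef transcript NM_017376 lost its call between the drugs in impacted mice on log2 counts (p = 0.0517) and with the compared groups alone (p = 0.0709). Near 0, Nr1d1 changed sign in saline HF-HI versus saline sham under quantile normalisation (0.000563 on the deposited scale) and array weights (0.0075), and in memantine HF-HI versus saline HF-HI under array weights (−0.011). Without 1 library it ran from −0.016 to 0.016 and from −0.012 to 0.019, and Rorb from −0.096 to 0.078 and from −0.17 to 0.013. The cause was not tested. Dbp had r = −0.0297 with Csnk1d on log2 summed counts and r = 0.0327 with Btrc without the 2 most extreme libraries. The number of clock genes correlated with Dbp was 10 without centring on the group means and 5 without those libraries, against 2.

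Taken over all transcripts, the replicate numbers of the labels did not pair the samples. The correlations of same-numbered libraries ran from −0.13 to 0.16, and in each pair of groups 1 of 10 libraries correlated best with its own number. Whether single genes followed the replicate number was not tested. As deposited value minus group mean, Per2 in replicate 1 was −0.1063 (sham) and −0.2715 (HF-HI) under saline. Under memantine it was −0.1419 (sham) and −0.2565 (HF-HI). Per1 was −0.1246, −0.3669, −0.0785 and −0.3445 in the same order. Dbp was −0.063 and −0.0397 under saline but 0.0831 and 0.0251 under memantine. With the replicate block the calls were 3, 3, 3 and 4, as without it, and 3 clock genes correlated with Dbp.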
